A study of Mus musculus with 13 samples.

Results

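The vascular basement membrane genes described here are Col4a1, Col4a2, Col15a1, Col18a1, Nid1, Nid2, Lama4, Lamb1, Lamc1 and Hspg2. They were chosen by name and not by a rule on their values, but with earlier results of these data known. Their probes were taken as all non-control probes whose RefSeq identifier or described symbol gave one of these genes. This found 15 probes, of 41174 different non-control probes on the array, for 9 of the 10 genes. Hspg2 had no probe under the rule. All 15 probes were bright enough to be tested.

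RNA from mouse retina was measured on 13 arrays: 6 of tip cells, which lead a growing vessel sprout, 4 of stalk cells, which follow them, and 3 of nonvascular retina, the control. Each array carried the sample in the red dye and one common mouse reference RNA in the green dye, with no dye swap, so a value is a log2 ratio of the sample over that reference. The study looked for genes that set tip cells apart. Strain, age, the way the cells were collected and the animal behind each sample are not given in the sources used here, so the p-values measure only the spread between these samples, which may be technical. In such RNA, fewer cells of a type and less RNA per cell cannot be told apart.

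The basement membrane is a thin sheet of extracellular matrix on which endothelial cells rest and which they share with pericytes. Laminins, trimers of an alpha, a beta and a gamma chain, start its assembly, and a network of collagen IV, itself a trimer, gives it strength. Nidogens and the heparan sulfate proteoglycan perlecan tie the networks together, and collagens XV and XVIII lie at the face of the sheet towards the surrounding matrix. In the growing retinal plexus this sheet is laid down around new sprouts.

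The collagen IV genes are shown first because they lie head to head in the mouse genome, so that their promoter windows share bases. In RefSeq's GRCm38.p6 the window from 250 bases before to 50 bases after the annotated start is chr8:11312777-11313076 on the minus strand for Col4a1 and chr8:11312555-11312854 on the plus strand for Col4a2. Capitals mark the 78 bases that lie in both windows, read from opposite strands.
Col4a1: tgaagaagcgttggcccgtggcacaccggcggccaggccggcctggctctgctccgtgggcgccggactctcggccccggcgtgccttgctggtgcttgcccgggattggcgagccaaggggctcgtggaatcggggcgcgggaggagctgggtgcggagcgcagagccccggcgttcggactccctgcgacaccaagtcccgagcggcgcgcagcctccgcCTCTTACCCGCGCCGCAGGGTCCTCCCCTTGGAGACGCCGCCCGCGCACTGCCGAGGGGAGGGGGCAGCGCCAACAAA
Col4a2: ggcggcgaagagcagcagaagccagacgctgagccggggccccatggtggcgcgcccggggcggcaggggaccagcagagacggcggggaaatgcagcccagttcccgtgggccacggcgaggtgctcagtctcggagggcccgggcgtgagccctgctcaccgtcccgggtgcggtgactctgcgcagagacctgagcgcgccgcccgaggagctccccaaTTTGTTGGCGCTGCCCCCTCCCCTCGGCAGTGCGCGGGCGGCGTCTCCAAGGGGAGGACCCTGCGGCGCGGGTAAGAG
The GC content was 74.0% in the Col4a1 window and 73.7% in the Col4a2 window, against a median of 52.7% over the 32851 windows of all genes. On either strand, the letters CCCTCCCC occurred 1 time in each window, inside the shared bases, and in 10.8% of all windows. The letters GGGCGG occurred 1 time in the Col4a1 window and 3 times in the Col4a2 window, with 1 of these in the shared bases, and in 35.7% of all windows. CCAAT occurred 1 time in each window and in 37.4% of all windows, and neither match lay wholly within the shared bases. These are matches of letters and not measured binding.

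The groups were checked against marker genes. The mean log2 ratio of 10 endothelial markers was 2.61 to 2.93 on tip arrays and 3.03 to 3.20 on stalk arrays, against 0.36 to 0.66 on nonvascular arrays. The mean of 11 pericyte and smooth muscle markers was 0.85 to 1.18 on tip arrays and 1.61 to 1.83 on stalk arrays, against −0.81 to −0.67 on nonvascular arrays. The mean of 12 neuron and photoreceptor markers was 0.40 to 0.65 on tip arrays and −0.20 to 0.51 on stalk arrays, against 1.74 to 1.93 on nonvascular arrays. Glial markers were also higher in the vessel groups. The mean of 7 astrocyte markers was 1.11 to 1.34 on tip arrays and 1.09 to 1.32 on stalk arrays, against −0.39 to 0.69 on nonvascular arrays. The mean of 7 Mueller glia markers was 2.36 to 2.72 on tip arrays and 2.58 to 2.72 on stalk arrays, against 1.04 to 2.21 on nonvascular arrays. Nonvascular replicate 3 stood apart from the other two in several basement membrane genes. For Col18a1, Nid1 and Lamc1 the differences from nonvascular retina are also given without it. Array brightness, as the median red signal above background, was 105 to 292 on tip arrays, 98.1 to 141 on stalk arrays and 166 to 282 on nonvascular arrays. The order of scanning in the file headers followed the groups, and the effect of either cannot be told apart from that of the other. Tip replicate 5 was scanned apart from the other tip arrays.

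**Figure D1:**
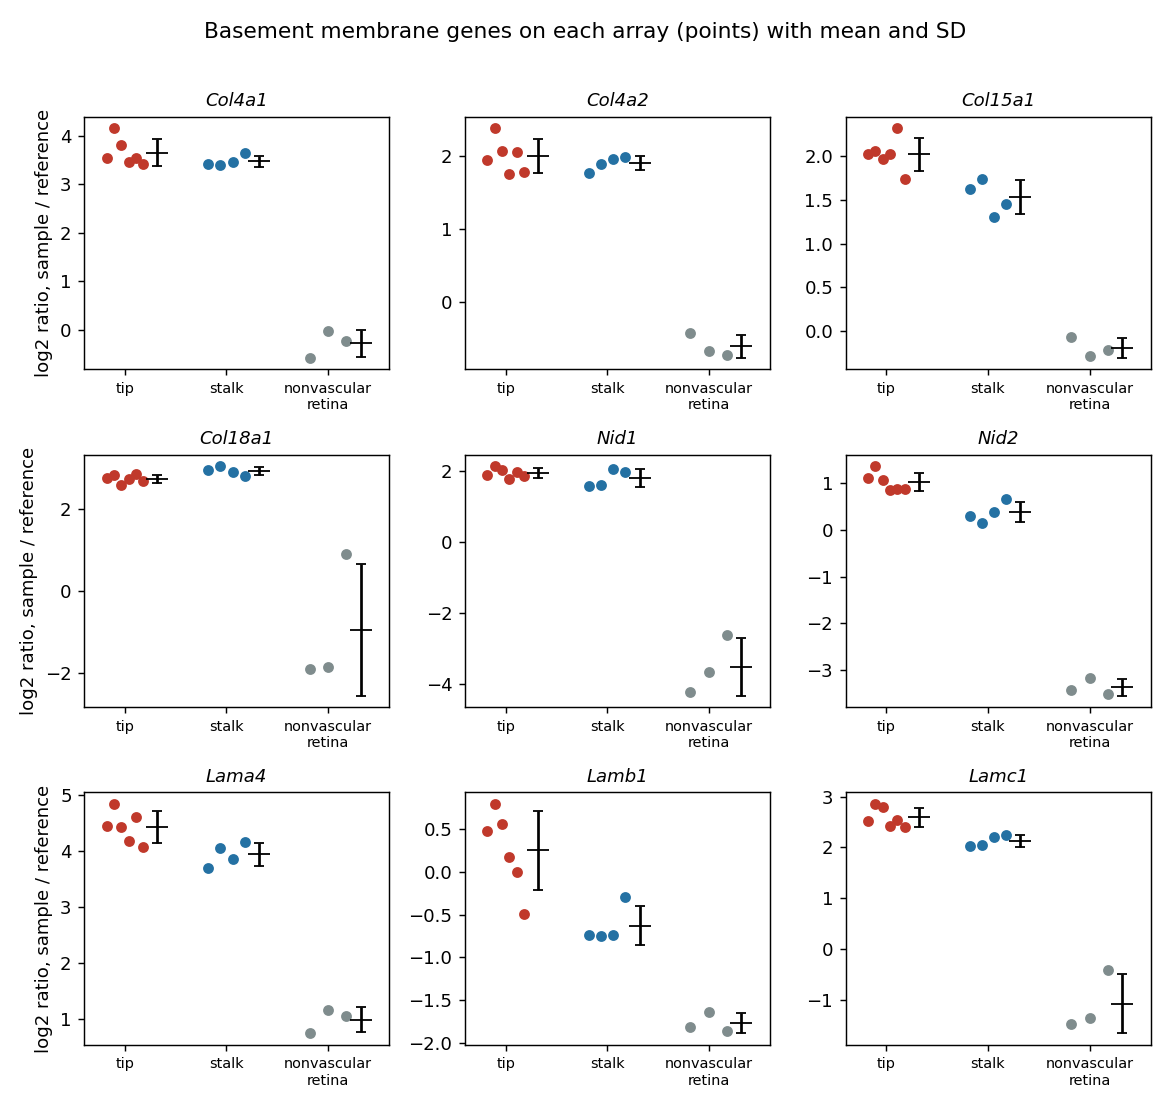
Log2 ratio of sample over reference for each of the 9 genes, with one point per array and the mean and SD of tip (n = 6), stalk (n = 4) and nonvascular retina (n = 3). Every gene lies lower in nonvascular retina than on any tip or stalk array, and Col15a1, Nid2 and Lamc1 have tip and stalk arrays that do not overlap.

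All 9 measured genes were higher in both vessel groups than in nonvascular retina. In tip against nonvascular retina 9 of 9 genes were called higher (adjusted p under 0.05 in limma), and 11.1% of all 31902 genes tested were called higher. In stalk against nonvascular retina the count was also 9 of 9, and 11.3% of all genes were called higher. The arrays of the groups did not overlap in any of the 9 genes, where 11.0% of all genes lay higher in tip than in nonvascular retina without overlap and 16.0% higher in stalk. The median log2 difference of the 9 genes was 3.67 in tip against nonvascular retina, beside −0.01 over all genes, and 3.21 in stalk against nonvascular retina, beside 0.00 over all genes. Over nonvascular retina, 4 of 7 astrocyte and 5 of 7 Mueller glia markers were also called higher in tip, and 3 and 4 of them in stalk, beside 9 and 8 of 10 endothelial and 9 and 10 of 11 pericyte markers in tip and stalk. The part of each cell type in the basement membrane values was not tested. The differences of tip from stalk were smaller. Of the 9 genes, Nid2, Col15a1 and Lamb1 were called higher in tip, where 1.45% of all genes were called higher, and none was called lower, where 1.32% of all genes were. At an unadjusted p under 0.05 in limma 5 of the 9 were higher in tip, as were 10.3% of all genes, and 0 were lower, as were 7.76% of all genes. The median difference of tip minus stalk was 0.46 over the 9 genes and 0.00 over all genes.

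Nid2 and Nid1 encode the nidogens, which link laminin to collagen IV. Nid2 had log2 ratios of 0.86, 0.98 and 1.37 (lowest, median and highest) on tip arrays, 0.31, 0.15, 0.39 and 0.66 on stalk arrays, and −3.43, −3.16 and −3.50 on nonvascular arrays. The 3 groups did not overlap, with every tip array above every stalk array and all of these above nonvascular retina. Nid2 was higher in tip than in stalk by 0.65 ± 0.12 (SE, adjusted p = 0.0146), which is 1.57-fold. This call was lost without stalk replicate 1, when the difference was 0.62 with an adjusted p of 0.0516, and held without tip replicate 5 (0.68, adjusted p = 0.0202). It was also lost with median centring (adjusted p = 0.18), with array brightness as a covariate (0.119), with the red channel alone (0.0594) and with the replicate block (0.0592). Against nonvascular retina the differences were 4.39 ± 0.13 for tip (adjusted p = 4.41e-10) and 3.74 ± 0.14 for stalk (adjusted p = 2.35e-09).

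Nid1 had the largest fold over nonvascular retina of the 9 genes and was not called between tip and stalk. Its log2 ratios were 1.78, 1.94 and 2.15 (lowest, median and highest) on tip arrays, 1.60, 1.61, 2.07 and 1.98 on stalk arrays, and −4.24, −3.66 and −2.63 on nonvascular arrays. Tip and stalk overlapped, and nonvascular replicate 3 was the highest of its group. Tip minus stalk was 0.13 ± 0.23 (SE, 95% interval −0.37 to 0.64, adjusted p = 0.81), and its sign turned, to −0.01, with median centring in place of loess. Nid1 was 44.2-fold higher in tip than in nonvascular retina (5.47 ± 0.26, adjusted p = 1.43e-08) and 40.2-fold higher in stalk (5.33 ± 0.28, adjusted p = 2.79e-08). Without nonvascular replicate 3 these differences were 5.90 (adjusted p = 9.47e-10) and 5.77 (adjusted p = 1.51e-09).

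Col4a1 and Col4a2 encode the collagen IV chains found in nearly all basement membranes. On the brighter of its probes, Col4a1 had log2 ratios of 3.41, 3.54 and 4.15 (lowest, median and highest) on tip arrays, 3.41, 3.39, 3.46 and 3.64 on stalk arrays, and −0.57, −0.02 and −0.23 on nonvascular arrays. Tip and stalk overlapped, and both lay far above nonvascular retina. The Col4a1 difference of tip minus stalk was 0.17 ± 0.14 (SE, 95% interval −0.14 to 0.49, adjusted p = 0.569). Over nonvascular retina it was 3.92 ± 0.16 for tip (15.2-fold, adjusted p = 4.55e-09) and 3.75 ± 0.17 for stalk (13.4-fold, adjusted p = 1.03e-08).

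Col4a2, its head-to-head neighbour, also had tip and stalk arrays that overlapped and lay above nonvascular retina. Its log2 ratios were 1.75, 2.00 and 2.38 (lowest, median and highest) on tip arrays, 1.77, 1.89, 1.96 and 1.99 on stalk arrays, and −0.43, −0.67 and −0.73 on nonvascular arrays. Tip minus stalk was 0.09 ± 0.11 (SE, 95% interval −0.15 to 0.34, adjusted p = 0.715). Col4a2 was 6.10-fold higher in tip than in nonvascular retina (2.61 ± 0.12, adjusted p = 1.48e-08) and 5.72-fold higher in stalk (2.52 ± 0.13, adjusted p = 3.22e-08).

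Within the 6 tip arrays the 6 pairs among Col4a1, Col4a2, Nid1 and Lamc1 had r of 0.91 to 0.97. Their adjusted exact permutation p was 0.025 to 0.0416, and they were the pairs with a value under 0.05. Other pairs had an r as high, with 0.95 for Col4a2 and Lama4 (adjusted p = 0.0571) and 0.91 for Col4a1 and Nid2 (adjusted p = 0.0999). Between the 2 collagen IV genes Pearson's r was 0.94 (exact permutation p = 0.00417, two-sided, adjusted p = 0.03 over the 36 pairs of the 9 genes) and Spearman's coefficient was 0.94 (exact permutation p = 0.0167, adjusted p = 0.1). Without the 2 arrays farthest from the Col4a1 median r was 0.91. Between Col4a1 and Lamc1 on these arrays r was 0.96 (exact permutation p = 0.00139, the smallest that 6 arrays can give, adjusted p = 0.025). Their Spearman's coefficient was 1.0 (exact permutation p = 0.00278, adjusted p = 0.05), and r was 0.98 without those 2 arrays. Between Col4a1 and Nid1, r fell from 0.91 to 0.66 without the same 2 arrays. Tip replicate 2 was the highest tip array in 7 of the 9 genes, and tip replicate 6 the lowest in 5. The part that a shared difference between arrays has in these correlations was not tested. How often pairs of other genes reach such an r on the same arrays was not measured. The values therefore do not set these genes apart from others.

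**Figure D2:**
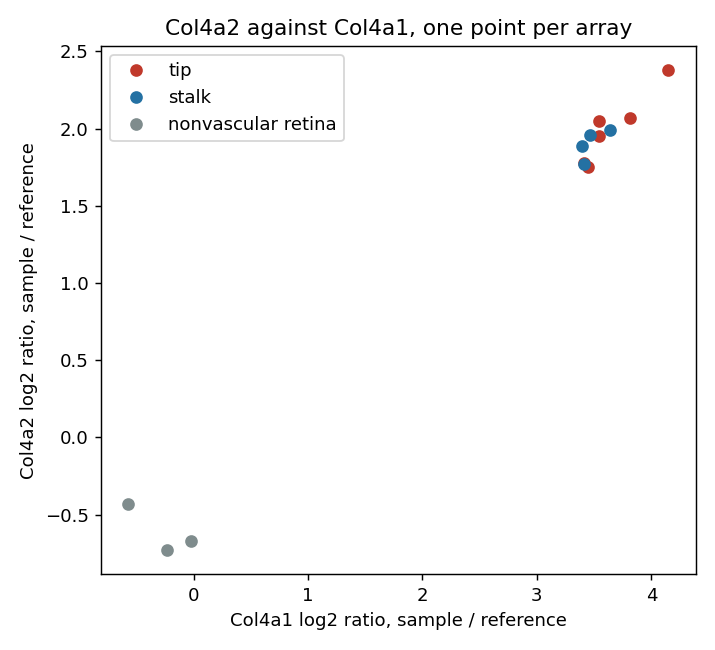
Log2 ratio of Col4a2 (vertical axis) against that of Col4a1 (horizontal axis), with one point per array. Tip and stalk arrays form one cloud at Col4a1 values of 3.39 to 4.15, and the 3 nonvascular arrays lie at −0.57 to −0.02.

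Col15a1 and Col18a1 encode the collagens whose C-terminal fragments are restin and endostatin. Col15a1 had log2 ratios of 1.74, 2.02 and 2.32 (lowest, median and highest) on tip arrays, 1.63, 1.74, 1.31 and 1.45 on stalk arrays, and −0.07, −0.29 and −0.22 on nonvascular arrays. The lowest tip array and the highest stalk array nearly touched but did not overlap. Col15a1 was called 1.40-fold higher in tip than in stalk (0.49 ± 0.11, SE, adjusted p = 0.0301). It lost that call without tip replicate 1, 2, 3 or 4 and without stalk replicate 1, 3 or 4, with differences of 0.42 to 0.52 and adjusted p of 0.0531 to 0.0938, and kept it without tip replicate 5 (0.43, adjusted p = 0.041). The call was also lost under 7 other settings, with an adjusted p of 0.0521 to 0.418. On 1 of the 3 nonvascular arrays the probe was not well above background. Tip minus nonvascular retina was 2.21 ± 0.12 (adjusted p = 3.33e-08) and stalk minus nonvascular retina was 1.72 ± 0.13 (adjusted p = 4.12e-07).

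Col18a1 was not called between tip and stalk. It had log2 ratios of 2.58, 2.74 and 2.84 (lowest, median and highest) on tip arrays, 2.95, 3.04, 2.90 and 2.80 on stalk arrays, and −1.90, −1.86 and 0.89 on nonvascular arrays. Tip and stalk overlapped, and nonvascular replicate 3 was far above the other two. Tip minus stalk was −0.19 ± 0.42 (SE, 95% interval −1.10 to 0.71, adjusted p = 0.851), and without nonvascular replicate 3 it was −0.19 with an adjusted p of 0.118. The difference of tip from nonvascular retina was 3.68 ± 0.46 (adjusted p = 4.29e-05) with that array and 4.61 without it (adjusted p = 3.96e-11). The difference of stalk from nonvascular retina was 3.88 ± 0.49 (adjusted p = 5.06e-05) with it and 4.80 without it.

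Lama4, Lamb1 and Lamc1 encode the chains of the laminin that is typical of endothelial basement membranes, and Lamb1 and Lamc1 chains also enter laminins of many other cells. Lamb1 had log2 ratios of −0.49, 0.33 and 0.80 (lowest, median and highest) on tip arrays, −0.74, −0.75, −0.74 and −0.29 on stalk arrays, and −1.82, −1.64 and −1.86 on nonvascular arrays. The lowest tip array lay below stalk replicate 4, so these groups overlapped, and nonvascular retina lay below both. Lamb1 was called 1.85-fold higher in tip than in stalk (0.88 ± 0.21, SE, adjusted p = 0.0425). The call was lost when any 1 of tip replicates 1 to 5, stalk replicates 1 to 3 or nonvascular replicates 1 and 2 was left out, with differences of 0.77 to 0.93 when it was one of the tip replicates 1 to 5. It was also lost under 6 other settings, array brightness as a covariate among them, with an adjusted p of 0.0513 to 0.355. Within the 6 tip arrays Lamb1 and array brightness had an r of 0.75. Its exact permutation p was 0.0903 (adjusted p = 0.813 over the 9 genes), and r was −0.28 without the 2 arrays farthest from the median brightness. The part of brightness in the Lamb1 difference was not tested further. Against nonvascular retina Lamb1 had the smallest difference of the 9 genes on their brightest probes. It was 2.03 ± 0.23 for tip (4.07-fold, adjusted p = 1.80e-05) and 1.14 ± 0.25 for stalk (2.21-fold, adjusted p = 0.00298). This rank depended on the choice of probe. With the mean of the probes of a gene, Col15a1 was smaller, at 1.16 for tip and 0.91 for stalk, and Col4a2 was at 1.54 for tip.

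Lamc1, the gamma chain, had log2 ratios of 2.41, 2.54 and 2.86 (lowest, median and highest) on tip arrays, 2.03, 2.04, 2.20 and 2.25 on stalk arrays, and −1.47, −1.36 and −0.41 on nonvascular arrays. Every tip array lay above every stalk array, yet the difference of 0.46 ± 0.18 (SE, 95% interval 0.08 to 0.85) had an adjusted p of 0.189 in the fit of all arrays. Without nonvascular replicate 3, which was again the highest of its group, the difference of tip from stalk was 0.46 with an adjusted p of 0.0258. Tip minus nonvascular retina was 3.67 ± 0.19 (adjusted p = 3.49e-08) with that array and 4.01 without it, and stalk minus nonvascular retina was 3.21 ± 0.21 (adjusted p = 1.74e-07) with it and 3.55 without it. In all, tip and stalk arrays did not overlap in 3 of the 9 genes (Col15a1, Nid2 and Lamc1), each higher in tip, and 2.72% of all genes were higher in tip without overlap.

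Lama4, the alpha chain, had log2 ratios of 4.07, 4.44 and 4.84 (lowest, median and highest) on tip arrays, 3.69, 4.05, 3.85 and 4.15 on stalk arrays, and 0.74, 1.16 and 1.05 on nonvascular arrays. Tip and stalk overlapped only through the lowest tip and the highest stalk array. Tip minus stalk was 0.49 ± 0.15 (SE, 95% interval 0.17 to 0.80, adjusted p = 0.102). Its sign turned, to −0.30 (adjusted p = 0.446), with the scanner's own log ratios and with the deposited ratios. A call higher in tip was gained, at 0.84 (adjusted p = 0.0387), with the red channel alone and, at 0.56 (adjusted p = 0.0428), without tip replicate 6. The reference signal of this probe over background was dim, at 49.3 to 76.1 on tip arrays and 42.0 to 52.5 on stalk arrays, and the part of this in the change of sign was not tested. Lama4 was 10.9-fold higher in tip (3.44 ± 0.16, adjusted p = 1.42e-08) and 7.75-fold higher in stalk (2.95 ± 0.17, adjusted p = 7.52e-08) than in nonvascular retina.

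**Figure D3:**
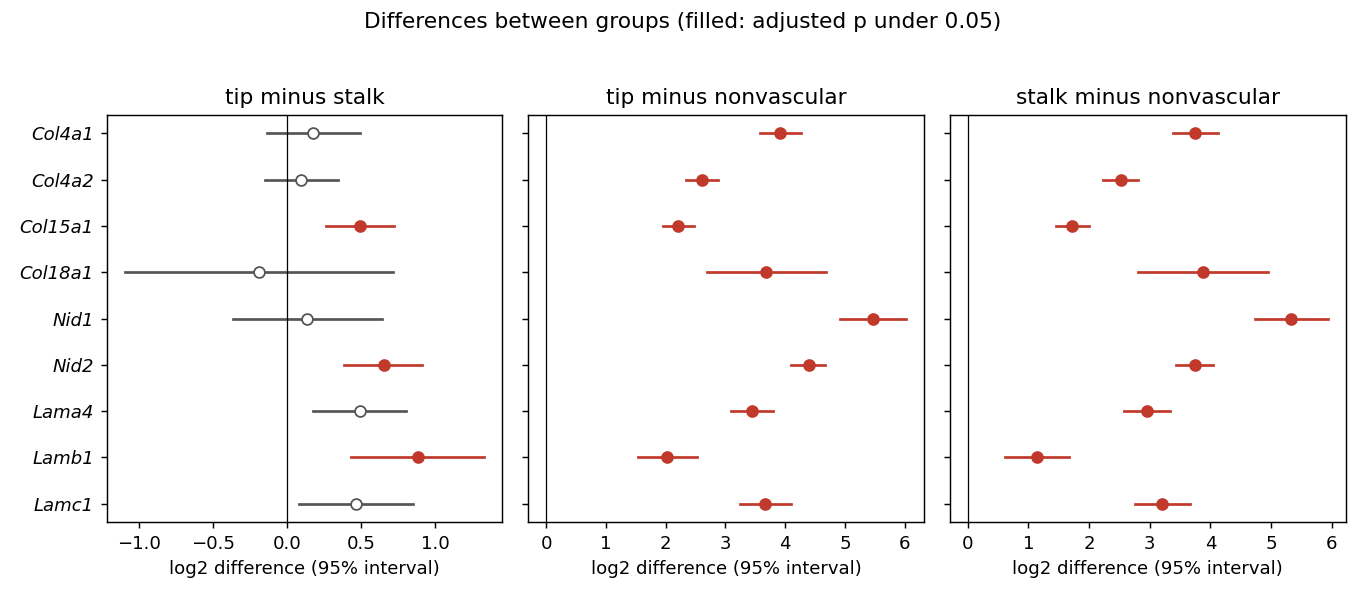
Log2 difference of each of the 9 genes (one row per gene) with its 95% interval, in 3 panels (tip minus stalk, then tip and stalk each minus nonvascular retina), where filled points have an adjusted p under 0.05. In tip minus stalk only Col15a1, Nid2 and Lamb1 are filled (differences of 0.49, 0.65 and 0.88), and Lama4 turns to −0.30 with the scanner's log ratios and Nid1 to −0.01 with median centring. All points of both panels against nonvascular retina are filled.

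Counted by probe, 3 of the 15 were called higher in tip than in stalk (1.33% of all probes were), 13 in tip than in nonvascular retina (10.8% of all probes) and 13 in stalk than in nonvascular retina (10.7% of all probes). Of the 9 genes, 5 had more than 1 probe, and the probes of a gene did not always differ between groups by the same amount. The other Col4a1 probe gave a difference of 0.11 between tip and stalk (adjusted p = 0.816), and of 2.84 for tip and 2.73 for stalk over nonvascular retina. The other Col18a1 probe gave 0.04, 2.88 and 2.83 for the same differences, and on it nonvascular replicate 3 was at 0.76 against −1.23 and −1.54. The bright and the dimmer probe thus both placed that array above the others. The other Col4a2 probe gave smaller differences, of 0.46 ± 0.09 for tip (adjusted p = 0.00131) and 0.33 ± 0.09 for stalk (adjusted p = 0.0194) over nonvascular retina. One further Lama4 probe followed the first, with a difference of 0.50 between tip and stalk (adjusted p = 0.0988), and of 3.06 for tip and 2.55 for stalk over nonvascular retina. The third Lama4 probe and the other Col15a1 probe were called in no comparison, with differences of −0.04 to 0.09 for Lama4 and 0.01 to 0.11 for Col15a1. The red signal over background on tip arrays was 120 to 481 for that Lama4 probe and 29.8 to 68.1 for that Col15a1 probe. The Lama4 differences over nonvascular retina thus rest on 2 of its 3 probes. The call of Col15a1 between tip and stalk therefore rests on 1 of its 2 probes.

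**Figure D4:**
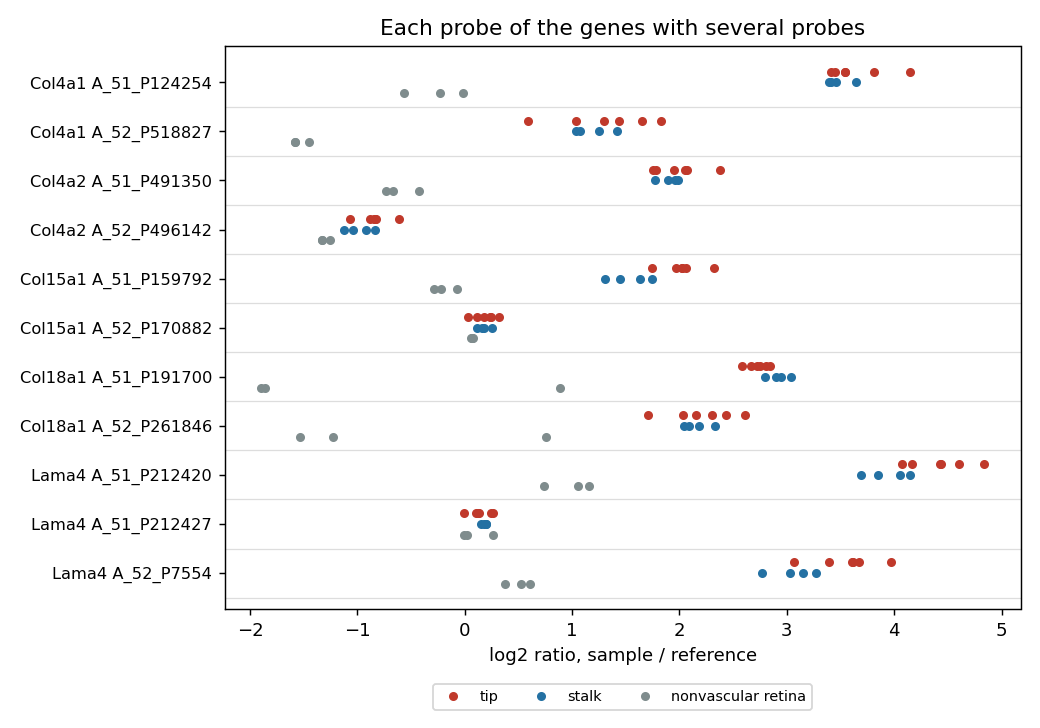
Log2 ratio on every array (points, coloured by group) for each probe of the 5 genes that have several probes, named as the array names them. One Col15a1 probe and one Lama4 probe stay near 0 in all groups, while the other probes of these genes separate nonvascular retina from tip and stalk.

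Hspg2 encodes perlecan, the main heparan sulfate proteoglycan of basement membranes. No probe carried its identifier or symbol, but 2 probes outside the rule were described as perlecan in the files, and they disagreed. The probe described as mouse perlecan mRNA, which the files place on chromosome 4, had log2 ratios of 1.26, 1.54 and 1.77 (lowest, median and highest) on the 4 tip arrays that measured it and 1.27, 1.64 and 1.31 on 3 stalk arrays, against −3.97, −3.95 and −3.34 on nonvascular arrays. Spots marked as outliers on tip replicates 1 and 3 and stalk replicate 3 were left out of that fit. Its tip minus stalk difference was 0.13 ± 0.18 (SE, adjusted p = 0.77), and it was higher than in nonvascular retina by 5.28 ± 0.18 in tip (adjusted p = 2.96e-08) and by 5.16 ± 0.19 in stalk (adjusted p = 4.83e-08). The second probe, a clone described as perlecan that the files place on chromosome 13, ran the other way, at −0.21 to 0.28 on tip arrays and 0.89 to 1.03 on nonvascular arrays. RefSeq's gene records place Hspg2 itself on chromosome 4, which is the chromosome of the mouse perlecan mRNA probe and not of the clone. Neither was counted among the 9 genes.

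Nonvascular replicate 3 was the highest nonvascular array in Col18a1, Nid1 and Lamc1 on their brightest probes, by margins that exceeded the gap between the other two arrays. On this array the mean log2 ratio of 7 astrocyte markers was 0.69, against −0.39 and −0.24 on replicates 1 and 2. The mean of 7 Mueller glia markers was 2.21 on replicate 3, against 1.38 and 1.04, and that of the 10 endothelial markers was 0.66, against 0.36 and 0.46. In the other 6 genes another nonvascular array was the highest. The part of these cell types in the values of Col18a1, Nid1 and Lamc1 was not tested. All 9 genes were called higher in tip and in stalk than in nonvascular retina also without this array.

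**Figure D5:**
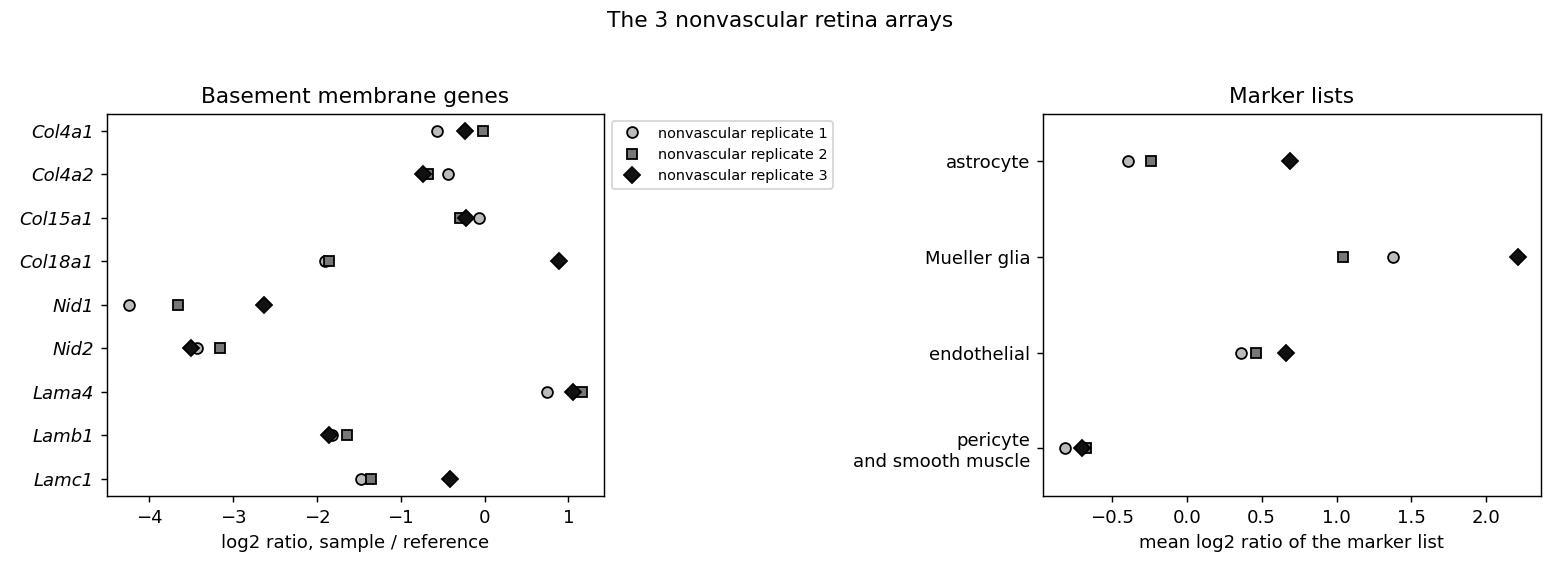
The 3 nonvascular retina arrays, with the log2 ratio of each of the 9 genes (left) and the mean log2 ratio of each marker list (right), one symbol per replicate. Replicate 3 lies at 0.89 for Col18a1 against −1.90 and −1.86, and at 0.69 for astrocyte markers against −0.39 and −0.24.

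The pericyte markers differed between tip and stalk as well, with 8 of 11 called lower in tip and a median difference of −0.77. Of the 10 endothelial markers, 2 were called lower in tip and none higher (6 lower and 0 higher at an unadjusted p under 0.05 in limma), with a median of −0.31. Within the endothelial list Pecam1 (0.15, adjusted p = 0.282) and Tie1 (0.1, adjusted p = 0.815) lay higher in tip, and the others lay lower. Nid2, Col15a1 and Lamb1 were called higher in tip. The part of cell composition in these differences was not tested. Neuron and photoreceptor markers had 0 of 12 called between tip and stalk (3 higher in tip at an unadjusted p under 0.05 in limma), and 9 of 12 called lower in tip than in nonvascular retina.

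Other components of basement membranes did not move as one. Of 25 listed genes 20 were tested, and the median difference was −0.01 between tip and stalk, and 0.11 for tip and 0.22 for stalk over nonvascular retina. Frem2, a protein of epithelial basement membranes, was the only one called between tip and stalk, lower in tip by −0.42 ± 0.07 (adjusted p = 0.011). Tinagl1, a matricellular protein, was at −0.35 (adjusted p = 0.0581) and was not called. In tip against nonvascular retina 4 were called higher and 4 lower, and in stalk against nonvascular retina 7 higher and 4 lower. Lower calls covered 16.8% of all genes in tip and 18.6% in stalk against nonvascular retina. Sparc, which binds collagen IV, was higher in tip (2.82 ± 0.17, adjusted p = 8.37e-08) and in stalk (2.98 ± 0.18, adjusted p = 9.28e-08) than in nonvascular retina. Lamb2, the beta chain of several adult laminins, was higher in tip (1.19 ± 0.22, adjusted p = 0.000955). Fras1, a partner of Frem2, was lower in tip by −0.97 ± 0.10 (adjusted p = 9.82e-06) and in stalk by −1.01 ± 0.11 (adjusted p = 1.30e-05) than in nonvascular retina, and Smoc1, a calcium-binding basement membrane protein, by −0.63 and −0.69 in the same groups. Lama1, the alpha chain of the laminin of early basement membranes, was lower in tip (−0.30 ± 0.07, adjusted p = 0.00481).

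The cell surface receptors of basement membranes had 0 of 13 tested genes called between tip and stalk, and at an unadjusted p under 0.05 in limma 3 were higher and 1 lower in tip. Itgb1, the beta chain shared by most laminin and collagen receptors, was at 0.78 ± 0.23 for tip minus stalk (adjusted p = 0.0881). In tip against nonvascular retina 8 were called higher and 2 lower, and in stalk against nonvascular retina 4 higher and 2 lower. Itgb4, a laminin receptor chain, was higher in tip (1.41 ± 0.18, adjusted p = 5.92e-05) and in stalk (1.46 ± 0.20, adjusted p = 8.18e-05). Gpc1, a heparan sulfate proteoglycan of the cell surface, was lower in tip (−1.43 ± 0.18, adjusted p = 4.83e-05) and in stalk (−1.87 ± 0.20, adjusted p = 9.21e-06).

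Enzymes and chaperones that build collagen IV had 14 of 15 listed genes tested. P4ha1, a collagen prolyl 4-hydroxylase subunit, was the only one called between tip and stalk, higher in tip by 0.93 ± 0.12 (adjusted p = 0.00154). In tip against nonvascular retina 9 of 14 were called higher and 0 lower (1 lower at an unadjusted p under 0.05 in limma), and in stalk against nonvascular retina 3 higher and 1 lower. P4ha2, the other such subunit, was higher in tip (1.43 ± 0.11, adjusted p = 5.18e-07) and in stalk (1.18 ± 0.11, adjusted p = 5.10e-06). Serpinh1, the collagen chaperone HSP47, was higher in tip (3.68 ± 0.52, adjusted p = 0.000136) and in stalk (3.71 ± 0.57, adjusted p = 0.000229), with an SD of 1.63 over the nonvascular arrays. Sec23a, a coat protein of the vesicles that carry procollagen, was the gene called lower in stalk (−0.73 ± 0.14, adjusted p = 0.00121).

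The collagens of interstitial fibrils and microfibrils had 0 of 7 genes called between tip and stalk, 1 lower in tip at an unadjusted p under 0.05 in limma, and a median difference of −0.26. In both vessel groups 4 were called higher and 1 lower than in nonvascular retina. Col1a1, a chain of fibrillar collagen, was higher in tip by 1.61 (adjusted p = 0.000564) and in stalk by 2.17 (adjusted p = 0.000159). Col6a1, a chain of microfibrillar collagen, was lower in tip by −0.96 (adjusted p = 0.000161) and in stalk by −1.0 (adjusted p = 0.000193).

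The genes most like Col4a1 over the 13 arrays were found by the root mean square difference of log2 ratios, each centred on its own mean. Vwa1, which encodes a von Willebrand factor A domain protein of matrix, was the closest other gene, at 0.236, followed by Cav1, the main protein of caveolae, at 0.260 and Cnn2, a calponin that binds actin, at 0.261. Of the basement membrane genes themselves Nid2 was the closest to Col4a1, at 0.265. For Nid2 the closest other genes were Arhgap29, a GTPase-activating protein, at 0.358, Unc5b, a netrin receptor of endothelial cells, at 0.368, and Vwa1 at 0.395. Col4a2 lay at 0.57 from Col4a1, and the farthest pair of the 9 genes was Nid1 and Lamb1, at 1.67. The distance follows mainly the size of the step between vessel samples and nonvascular retina, which was 3.60 for Vwa1 in tip minus nonvascular retina, beside 3.92 for Col4a1.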

How the data were processed

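Scans of the 13 arrays were quantified in Agilent Feature Extraction 8.5.1.1, per the submitters' processing notes. Red and green mean intensities and local background intensities are not normalized, per the file headers. Per the file headers, these files also give a log10 ratio made from background-subtracted, dye-normalized signals. A deposited value matrix gives linear ratios. On every array their log10 lay within 0.001 of those log ratios for at least 99.943% of the probes with both values.

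Intensities were corrected with normexp (offset 50) and normalized by loess within arrays in limma 3.58.1 (R 4.3.3, with data.table at version 1.17.8). Control spots were left out, outlier-marked spots were set to missing, and repeated spots were averaged. The brightest probe stood for its gene, and genes well above background in red on at least 3 arrays were kept (31902). Of these, 16586 had a gene symbol and the rest went by the name in the files. Shares over all genes include both kinds. RefSeq's gene records (GRCm38.p6) named 22072 probes by accession and 1434 by symbol, and 17668 kept the name in the files. Promoter windows came from RefSeq GRCm38.p6, which held them for 7 of the 10 genes.

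Group means were fitted to all 13 arrays with limma, with Benjamini-Hochberg adjustment of p over all genes of a comparison. Differences carry standard errors, group values are per array, and the number of arrays limits the precision. The fit was tested on simulated data with independent noise for each gene, which cannot show the effect of differences between whole arrays. The genes and lists were chosen with earlier results of these data known. Named are the 10 genes, up to 3 called genes with the smallest p per list and direction with 1 uncalled example, and the 3 genes most like Col4a1 and Nid2. Not all genes this rule allows are named. The alternatives were other background corrections, scalings, filters, probe choices, fits and the loss of each array.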

Additional observations from a re-analysis of the deposited data

Results flagged for a closer look

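Values of single arrays were searched in 43 genes and probes, over at most 86 tip and stalk groups, and 3 were far from the rest of their group. Missing values were left out, and groups with fewer than 4 values were skipped. Chance alone flags about 1 group in 20. Lamb1 was at −0.29 on stalk replicate 4, against −0.75 to −0.74 on the other stalk arrays. Col1a1 was at −4.80 on tip replicate 1, against −3.55 to −3.36 on the other tip arrays. Arhgap29 was at 1.01 on tip replicate 1, against 0.53 to 0.71 on the other tip arrays.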

How the results depend on the processing

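All 9 genes were called higher in tip and in stalk than in nonvascular retina under every alternative that tested them. The size of these differences moved more, with 1.16 to 4.71 for Col15a1 in tip and 0.91 to 4.44 in stalk. In tip minus stalk, Nid2 kept its call under 19 of 24 alternatives (0.57 to 0.74, adjusted p 0.00901 to 0.18), Col15a1 under 9 of 23 (0.25 to 0.57, adjusted p 0.0101 to 0.418) and Lamb1 under 8 of 24 (0.61 to 1.13, adjusted p 0.00425 to 0.355). Of the 9 genes, 3 were called higher in tip than in stalk. The count was 1, Nid2, both with the scanner's log ratios and with the deposited ratios. It was 1 with the red channel alone, where Lama4 was called (0.84, adjusted p = 0.0387) and Nid2, Col15a1 and Lamb1 were not. It was 0 with median centring and 0 with array brightness as a covariate. Lama4 turned to −0.30 with the scanner's log ratios and −0.30 with the deposited ratios, and Nid1 to −0.01 with median centring. The cause was not tested.

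Over all genes 464 were called higher in tip than in stalk, against 296 from the deposited ratios, 207 from red intensities alone, 76 after adjusting for array brightness and 49 with median centring. The 420 called lower became 202 with median centring and 149 with brightness. In tip against nonvascular retina 3553 were called higher, and 2174 with median centring. Without 1 array the count of the 9 genes called higher in tip than in stalk was 0 to 4, and over all genes 189 to 1013 were higher and 256 to 580 lower. Leaving out stalk replicate 1 gave 189 higher and 256 lower, tip replicate 2 gave 251 and 271, stalk replicate 3 gave 200 and 265, tip replicate 3 gave 247 higher and tip replicate 6 gave 1013 higher.

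Same-numbered replicates did not deviate together (correlations of −0.14 to 0.08). The labels do not say whether equal numbers mark a shared animal or preparation, and weak correlations over whole arrays cannot decide it. With the replicate block, tip minus stalk was 0.72 for Nid2 (adjusted p = 0.0592), 0.49 for Col15a1 (0.0406) and 1.13 for Lamb1 (0.0217).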
